A study of Arabidopsis thaliana with 9 samples.

Results

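In the clf swn double mutant of Arabidopsis thaliana 163 of the 30361 genes on the array had a signal more than 16-fold above wildtype Col, while their signal in siFIE seedlings stayed within 2-fold of Col, and these 163 genes are described here. A member had a mean log2 signal over 3 arrays that was more than 4 above Col in clf swn and between -1 and 1 from Col in siFIE. The rule left out 24 loci of the best known seed families (cruciferins, the seed albumins SESA1 to SESA5, oleosins and oil body proteins, late embryogenesis abundant proteins, FUS3, LEC1 and the storage vacuole aquaporin TIP3;1). Of 373 genes more than 4 above Col in clf swn, 195 were also more than 1 above Col in siFIE, 14 met both cuts but were among the 24 loci, and 1 (AT1G15825) was more than 1 below Col in siFIE. Since both differences chose the members, their values in these comparisons are given as a description and without a test.

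Total RNA came from whole seedlings of 12 days, grown on agar, and each genotype was sampled as 3 pools of 10 to 12 plants, each on 1 array. The clf swn plants carried mutations in CLF and SWN, the histone methyltransferase subunits of Polycomb Repressive Complex 2 (PRC2) in vegetative tissue, were sterile and were picked out of segregating progeny. Their alleles are given as clf-7 swn-28 by the sample names and as swn-7 clf-28 by the growth protocol. The siFIE plants were first-generation (T1) transformants with an RNAi construct against FIE, a core subunit of PRC2, chosen on kanamycin at 50 mg per litre and pooled only where their phenotype was intermediate. The labels place siFIE in the C24 ecotype and the methods place it in Col, and all wildtype arrays are Col, so RNAi, ecotype and selection cannot be told apart in that comparison. The pools of T1 plants hold independent transformants, and the sources used here do not say whether the pools of a genotype were grown apart.

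PRC2 places 3 methyl groups on lysine 27 of histone H3 (H3K27me3), a mark that keeps developmental genes silent outside their proper stage. Seed maturation is the best known programme of this kind in seedlings. During maturation the embryo fills with storage protein and oil, acquires tolerance to drying and enters dormancy under abscisic acid, directed by LEC1, LEC2, FUS3 and ABI3, and after germination these genes are shut off.

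The study listed regions bound by tagged FIE that also carried H3K27me3 in 12-day seedlings. Both were measured in the C24 ecotype, whereas the wildtype arrays are Col. The tissue is given as aerial in the study's results and as whole seedlings in its methods. Most but not all of the regions of this kind that it tested by ChIP-qPCR were verified. For 24 of the 163 members the list gave a region over the gene body with its sequence. For 6 of these members, a storage protein, a latex-like protein, an RNA-binding protein and 3 transcription factors, the first 300 bases of the region are printed here in coordinates of TAIR9, since they show the DNA of members at which the complex was listed. Positions are as listed and the strand is not stated. Capitals mark a match, on either strand, to the RY element CATGCA bound by the B3 domain of FUS3, LEC2 and ABI3 (in PAP85, LBD40 and MLP2), to the telobox AAACCCTA (in CUC2 and MYB11) or to the GAGA repeat GAGAGA (in TEL1).
CUC2 (chr5:21901820-21902119): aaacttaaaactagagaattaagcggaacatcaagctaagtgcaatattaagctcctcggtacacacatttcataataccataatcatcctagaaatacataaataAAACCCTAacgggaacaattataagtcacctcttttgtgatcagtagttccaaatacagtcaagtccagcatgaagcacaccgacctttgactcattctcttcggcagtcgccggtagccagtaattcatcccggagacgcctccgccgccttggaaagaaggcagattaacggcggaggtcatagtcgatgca
LBD40 (chr1:25053720-25054019): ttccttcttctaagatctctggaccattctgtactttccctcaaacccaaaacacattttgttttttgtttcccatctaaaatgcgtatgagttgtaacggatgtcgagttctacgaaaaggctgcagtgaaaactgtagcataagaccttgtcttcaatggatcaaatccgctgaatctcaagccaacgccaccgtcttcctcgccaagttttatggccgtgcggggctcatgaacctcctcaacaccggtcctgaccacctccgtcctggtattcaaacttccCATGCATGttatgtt
MLP2 (chr1:5152350-5152649): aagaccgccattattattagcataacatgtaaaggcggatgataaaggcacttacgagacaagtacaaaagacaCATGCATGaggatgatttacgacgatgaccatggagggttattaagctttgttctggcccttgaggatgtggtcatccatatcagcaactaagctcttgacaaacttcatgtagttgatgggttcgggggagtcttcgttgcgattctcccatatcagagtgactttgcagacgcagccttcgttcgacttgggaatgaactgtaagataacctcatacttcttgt
MYB11 (chr3:23155530-23155829): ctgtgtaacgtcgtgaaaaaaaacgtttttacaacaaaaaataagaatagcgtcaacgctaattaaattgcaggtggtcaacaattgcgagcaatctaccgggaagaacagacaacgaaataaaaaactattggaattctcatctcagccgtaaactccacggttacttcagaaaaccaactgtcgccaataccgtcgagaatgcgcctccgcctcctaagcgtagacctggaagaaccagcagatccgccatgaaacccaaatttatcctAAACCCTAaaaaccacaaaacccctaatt
PAP85 (chr3:8013540-8013839): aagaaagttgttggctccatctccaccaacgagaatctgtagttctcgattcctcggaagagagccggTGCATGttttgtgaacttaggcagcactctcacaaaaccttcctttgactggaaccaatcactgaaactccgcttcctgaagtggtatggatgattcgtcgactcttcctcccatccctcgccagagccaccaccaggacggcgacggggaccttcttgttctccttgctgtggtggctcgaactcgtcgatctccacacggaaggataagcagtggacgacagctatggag
TEL1 (chr3:9546260-9546559): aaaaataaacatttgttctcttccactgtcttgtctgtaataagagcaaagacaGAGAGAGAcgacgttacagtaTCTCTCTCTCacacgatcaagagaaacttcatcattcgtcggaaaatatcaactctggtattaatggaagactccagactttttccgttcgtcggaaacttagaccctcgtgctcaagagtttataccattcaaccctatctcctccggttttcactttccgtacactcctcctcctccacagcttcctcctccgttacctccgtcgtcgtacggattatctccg
Over the first 300 bases, 10 of the 25 member regions held the RY element, 4 the telobox and 4 the GAGA repeat. Among the 703 listed regions of at least 300 bases, 122 held the RY element, 105 (14.9%) the telobox and 273 (38.8%) the GAGA repeat. Overlapping matches to 1 motif are joined in the capitals. These are matches of letters, and binding at them was not measured.

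The genotypes were checked first at their own genes. SWN had a signal of 229.8 ± 144 in clf swn, 11838 ± 371 in siFIE and 11448 ± 236 in Col (mean ± SD of 3 pools), and the drop in clf swn passed the test (log2 difference -5.82, SE 0.35, adjusted p = 9.5e-07 by limma). CLF had 4014 ± 378 in clf swn, 10997 ± 1020.2 in siFIE and 11640.0 ± 783 in Col (log2 difference -1.54, SE 0.12, adjusted p = 6.6e-06 by limma). FIE had 3330.1 ± 73.3 in clf swn, 282 ± 38.3 in siFIE and 1843 ± 115 in Col, lower in siFIE by limma (log2 difference -2.72, SE 0.12, adjusted p = 1.4e-06 by limma), although with each of 3 ways of processing the probe signals the drop was under 2-fold. By RT-qPCR the study reported FIE mRNA in the siFIE plants at no more than a small fraction of the wildtype Col level. Where the probes of CLF and SWN lie relative to the mutations is not given in the sources used here. Median RMA signals of the 9 arrays lay between 1116 and 1169, and Pearson's r of log2 signals across genes, which are not independent, ranged over 0.991 to 0.994 for pools of 1 genotype and over 0.915 to 0.978 for pools of different genotypes. Genes are named as called where limma on all 9 arrays gave an adjusted p under 0.05 and the groups differed by over 2-fold.

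**Figure D1:**
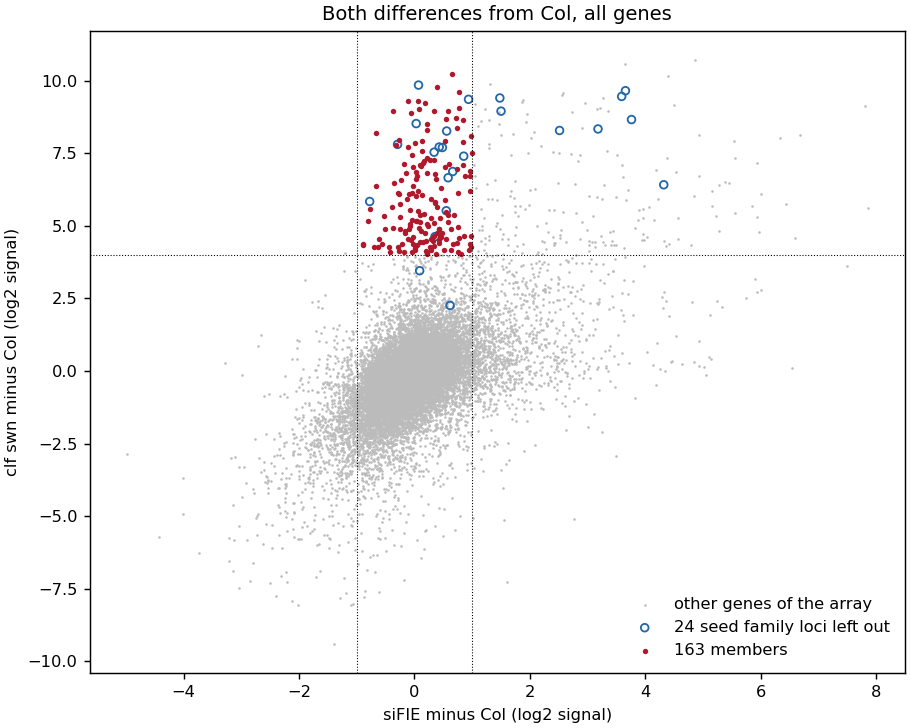
Difference from Col in clf swn (vertical axis, log2 signal) against that in siFIE (horizontal axis, log2 signal) for every gene of the array. Dotted lines mark the rule, red points are the 163 members, open circles are the 24 seed family loci left out, and 195 genes lie above 4 in clf swn and right of 1 in siFIE.

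The members spanned a wide range in clf swn. Their log2 difference from Col ran between 4.01 and 10.23, with a median of 5.37, against 0.05 over all genes. It was above 5 in 97 members, above 6 in 67, above 7 in 42, above 8 in 20 and above 9 in 8. In siFIE the median member differed by 0.18 from Col, against -0.02 over all genes. On all 163, every clf swn array lay above every siFIE and Col array, a gap the rule makes near certain (of all genes 30.0% had every clf swn array above every Col array, and 1.23% differed by more than 4). The 3 siFIE arrays lay wholly above the 3 Col arrays in 37 members and wholly below in 10, against 18.4% and 19.2% of all genes, and the groups overlapped in 116. The rule limits this second count too.

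The members lay low in the range of the array outside clf swn. The rule itself favours a low signal there and a high one in clf swn, since it asks for a difference above 4. Probes differ in brightness, so this places a signal within the array's range and is no RNA level. In 96 the mean Col signal lay below the 25th percentile of all genes, at 83.1, and in 160 below the 50th. In clf swn 133 of them lay above the 50th percentile and 42 above the 90th. The size of a difference depends on how the probe signals are processed. The median clf swn difference of the members was 5.37 by RMA and 4.12 on probe signals with normexp background correction and quantile scaling. It was 3.46 on probe signals without background correction, where 105 members were above 3 and 144 above 2. Their median siFIE difference was 0.18 by RMA and 0.05 without background correction. Each of the 386 probes of the members was brighter in clf swn than in Col once arrays were set to 1 median. On the log2 scale 380 of them differed by more than 1 and 324 by more than 2. The rule makes this direction near certain, since the values it used came from these same probes. No member probe was saturated on a clf swn array. Folds below are those of RMA, with the fold of uncorrected probe signals for the leading genes. In bulk tissue, a change in the share of cells that express a gene and a change in RNA per cell cannot be told apart.

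Of the 163, 74 carry a symbol in the reference annotation or in the study's own tables and 89 are known by locus alone. By role, 68 were placed in groups: 9 in storage and oil, 10 in desiccation and abscisic acid, 15 transcription factors, 7 for hormones and other regulators, 16 for organelles and transport, 8 in specialised metabolism and 3 major latex protein-like genes. Storage and oil genes had the largest median difference, 8.21, and transcription factors and hormone genes the smallest by RMA, 4.41 and 4.32.

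**Figure D2:**
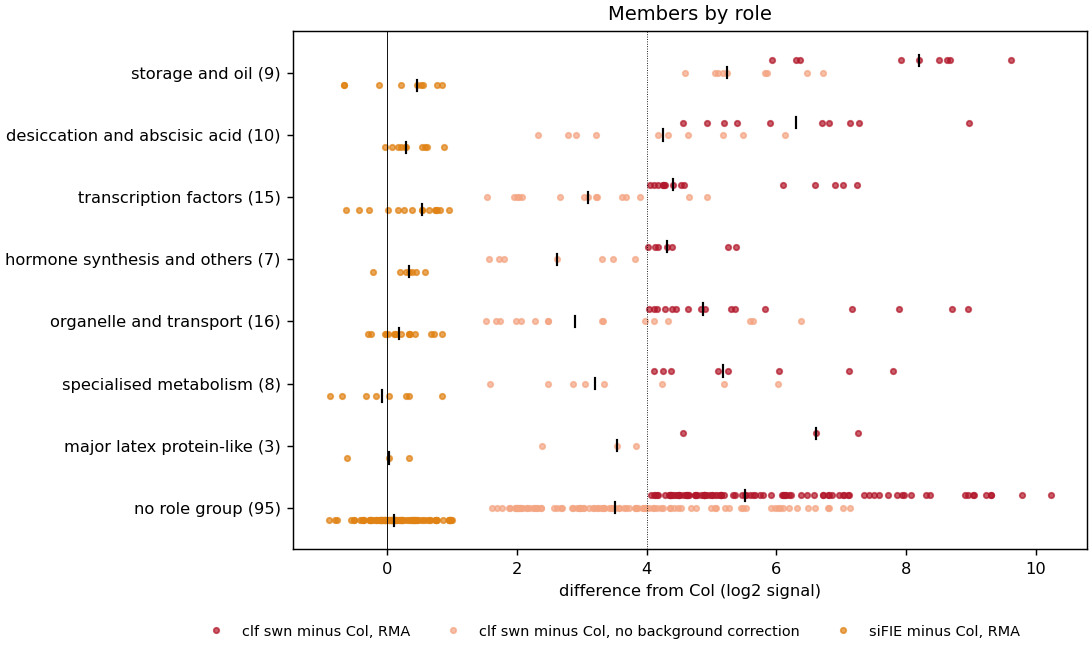
Log2 difference from Col (horizontal axis) for each member, 1 row per role with the number of members, in clf swn by RMA (dark red), in clf swn without background correction (pale red) and in siFIE by RMA (orange). Black ticks are medians, the solid line is 0 and the dotted line is the cut of 4. The pale points lie left of the dark ones in every role.

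The storage and oil genes were the strongest named group, with 5 of 9 among the 20 largest members. PAP85, a storage protein related to vicilins, had signals of 42814, 42463 and 40941 in clf swn, 129.5, 248 and 214 in siFIE and 117, 97.7 and 103 in Col. The siFIE pools all lay above the Col pools, and every clf swn pool lay far above both. The fold over Col was 398 in clf swn (105 without background correction) and 1.80 in siFIE. The siFIE log2 difference of PAP85 was 0.849 by RMA and 0.362 without background correction. KCS18, also called FAE1, the enzyme that lengthens fatty acids for seed oil, had 26055, 24884 and 25999 in clf swn, 59.5, 66.7 and 41.7 in siFIE and 135, 69.4 and 69.6 in Col. Here the siFIE pools all lay below the Col pools, and the clf swn fold was 295. HSD1, a sterol dehydrogenase of oil bodies, is present as copies with 1 symbol. AT5G50700 had 25095, 24208 and 28541 in clf swn, 43.2, 73.5 and 55.2 in siFIE and 46.2, 24.7 and 30.8 in Col. AT5G50600 had 10186, 8338 and 10882 in clf swn, 34.6, 31.9 and 37.9 in siFIE and 25.6, 22.9 and 23.1 in Col. Whether the probes keep the copies apart is not known, so their folds of 790.1 and 409 are not independent. The siFIE pools overlapped the Col pools in AT5G50700 and lay above them in AT5G50600.

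OBAP1a, an oil body-associated protein, had 18297, 16850.4 and 22350.2 in clf swn, 57.1, 52.7 and 72.3 in siFIE and 87.5, 50.6 and 31.8 in Col. Its siFIE and Col pools overlapped, and its clf swn fold was 366. ATPXG2, a peroxygenase of the caleosin family found on oil bodies, had 12297, 12563 and 9345 in clf swn, 72.7, 67.3 and 61.3 in siFIE and 50.9, 44.8 and 44.0 in Col. The clf swn fold of ATPXG2 was 243, with siFIE above Col on every array. SUS2, a sucrose synthase of developing seeds, had 17068, 17241 and 17077 in clf swn, 328, 264 and 304 in siFIE and 198, 227 and 226 in Col, again with siFIE above Col on every array and with close agreement among the clf swn pools. ACP5, an acyl carrier protein that holds the growing fatty acid in plastids, had 10758, 10281 and 9647 in clf swn, 92.0, 84.0 and 60.8 in siFIE and 96.1, 159 and 124 in Col. Like KCS18 it was lower on each siFIE array than on each Col array. ATS3, named as a seed gene, gave 30062, 26344 and 42314 in clf swn, 590.1, 373 and 514 in siFIE and 497, 603 and 497 in Col. Its clf swn pools were the widest apart of this group, its siFIE and Col pools overlapped, and its fold was 60.8. Across the 9 genes the siFIE difference ran between -0.67 and 0.85, with 4 genes wholly above Col, 2 wholly below and 3 overlapping. Of all genes 18.4% lay wholly above Col in siFIE and 19.2% wholly below.

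**Figure D3:**
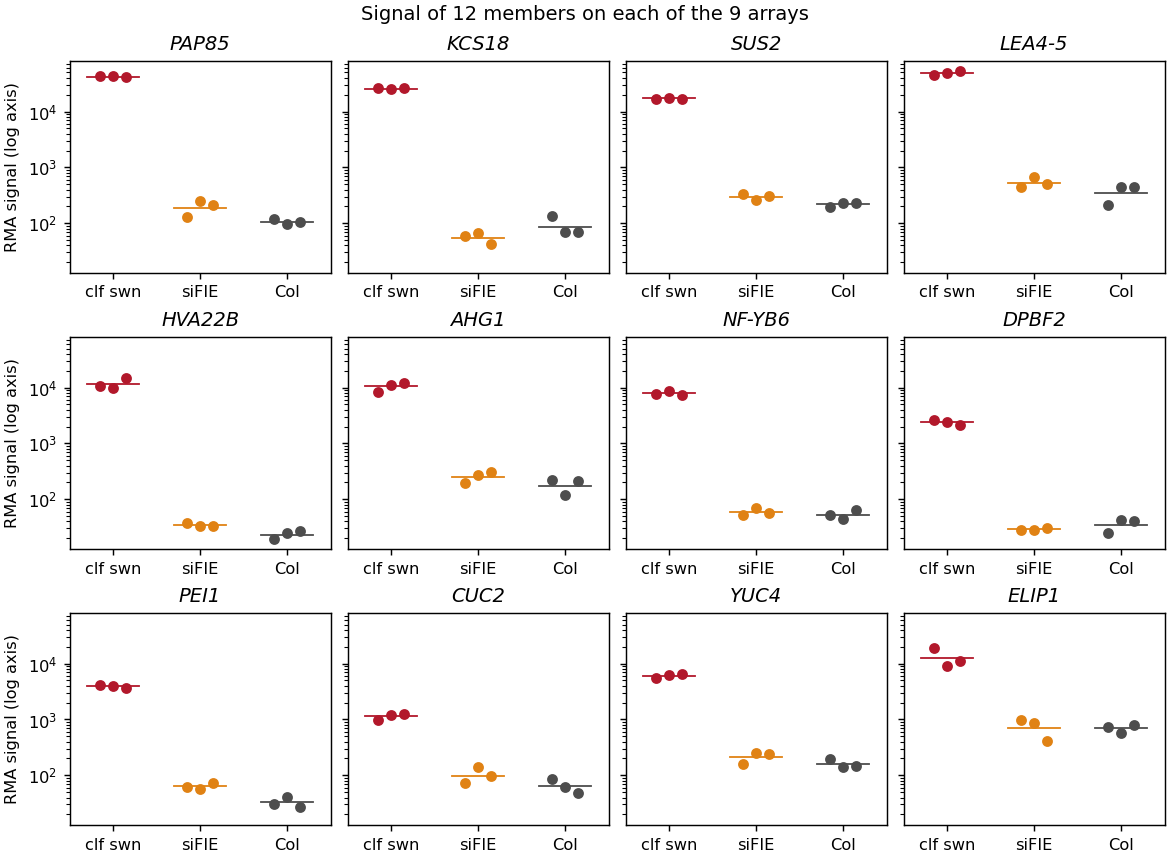
RMA signal (vertical axis, log scale) of 12 members on each of the 9 arrays, with clf swn (red), siFIE (orange) and Col (grey) from left to right in each panel. Points are pools and lines are geometric means. In every panel all clf swn pools sit above all siFIE and Col pools, most closely in CUC2.

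Genes of drying tolerance and abscisic acid formed the next group, with differences between 4.55 for RAB28 and 8.96 for HVA22B. HVA22B, a homologue of a barley gene induced by abscisic acid, had 10689, 9936 and 14901 in clf swn, 37.9, 33.2 and 33.3 in siFIE and 19.2, 24.7 and 26.8 in Col, a fold of 499 (44.9 without background correction). The siFIE pools were all above the Col pools, at a log2 difference of 0.574 by RMA and 0.124 without background correction. LEA4-5, a late embryogenesis abundant protein of group 4, had 44545, 49252 and 53769 in clf swn, 448, 661 and 499.7 in siFIE and 216, 446 and 436 in Col. It was 141-fold Col in clf swn, and the lowest siFIE pool lay just above the highest Col pool. LTI65, also known as RD29B and induced by abscisic acid, had 14654, 17502 and 17305 in clf swn, 196, 315 and 382 in siFIE and 128, 218 and 139 in Col, with overlapping siFIE and Col pools. DSI-1VOC, annotated as desiccation-induced, gave 8381, 6490.2 and 8711 in clf swn, 80.4, 72.4 and 88.4 in siFIE and 61.5, 60.3 and 89.4 in Col. RAB28, another late embryogenesis gene, gave 1891, 2326 and 2606 in clf swn, 101, 93.7 and 172 in siFIE and 96.5, 98.4 and 93.4 in Col. In both, siFIE and Col overlapped.

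Repressors of the abscisic acid response were among the members as well. AHG1 and HAI3 encode protein phosphatases of the 2C class, which block abscisic acid signalling. AHG1 had 8450.3, 11319.6 and 12232 in clf swn, 198, 270.0 and 311 in siFIE and 219, 117 and 213 in Col. HAI3 had 1569, 2123 and 2417 in clf swn, 59.8, 46.1 and 54.4 in siFIE and 53.4, 60.7 and 50.6 in Col. Their clf swn folds were 59.8 and 36.6, the lowest clf swn pool being pool 1 in both. RDO5, a related protein that deepens seed dormancy, had 2646, 2712 and 2936 in clf swn, 68.3, 73.7 and 79.2 in siFIE and 49.2, 59.8 and 96.4 in Col. In all of these 3 the siFIE and Col pools overlapped. GASA3 and GASA2, also counted in this group, belong to a family of small peptides under gibberellin control. They lie next to each other on chromosome 4. GASA3 had 4817, 4264 and 5471 in clf swn, 38.8, 34.9 and 39.2 in siFIE and 30.7, 30.2 and 32.9 in Col. GASA2 had 1272, 1088 and 1202 in clf swn, 28.3, 49.2 and 49.4 in siFIE and 40.8, 39.0 and 36.6 in Col. Their folds were 154 and 30.6. None of the 10 genes had every siFIE pool below every Col pool, against 19.2% of all genes. In 3 (HVA22B, LEA4-5 and GASA3) every siFIE pool lay above, against 18.4% of all genes.

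The 15 transcription factors held seed and embryo regulators with large differences and shoot regulators close to the cut. NF-YB6, the nearest relative of LEC1 and a regulator of embryo filling, had 7801, 8795 and 7444 in clf swn, 52.5, 70.2 and 56.5 in siFIE and 51.9, 43.9 and 64.4 in Col. It was 151-fold Col. PEI1, a zinc finger protein needed by the embryo, had 4091, 4032 and 3628 in clf swn, 61.7, 56.6 and 73.0 in siFIE and 30.4, 41.6 and 27.6 in Col. Its siFIE pools lay above Col on every array, by 0.957 on the log2 scale by RMA and 0.234 without background correction. AGL67, a MADS protein, had 9016, 9339.6 and 10242 in clf swn, 134, 111 and 78.9 in siFIE and 56.9, 86.0 and 78.6 in Col. LBD42, a LOB domain protein, had 6443, 7222 and 5772 in clf swn, 97.5, 71.0 and 92.4 in siFIE and 69.3, 73.6 and 57.4 in Col. DPBF2, the seed bZIP protein also called bZIP67, had 2658, 2463 and 2163 in clf swn, 27.9, 28.2 and 30.8 in siFIE and 24.4, 43.1 and 41.0 in Col. For NF-YB6, AGL67, LBD42 and DPBF2 the siFIE and Col pools overlapped. MYB118, a regulator of the maturing endosperm and embryo, had 493, 711 and 587 in clf swn, 21.7, 22.0 and 16.4 in siFIE and 41.6, 25.6 and 27.3 in Col, with the siFIE pools below the Col pools, and at 4.26 it was nearer the cut than these.

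The shoot and flower regulators lay close to the cut in clf swn. CUC2, which sets organ boundaries, had 995, 1207 and 1242 in clf swn, 73.6, 138 and 95.2 in siFIE and 86.5, 61.6 and 48.0 in Col. PRS (WOX3), which acts at organ margins, had 894, 985 and 913 in clf swn, 47.9, 55.5 and 75.6 in siFIE and 51.1, 34.9 and 36.5 in Col. JAG, a zinc finger protein of organ growth, had 2624, 2456 and 2827 in clf swn, 186, 239.5 and 197 in siFIE and 122, 149.8 and 105 in Col, and siFIE lay above Col on each array. HEC2, a bHLH protein of the gynoecium, had 945, 900.5 and 1066 in clf swn, 66.3, 51.9 and 64.9 in siFIE and 58.6, 43.5 and 50.7 in Col. In CUC2, PRS and HEC2 the siFIE and Col pools overlapped. AGL13, a MADS gene of the flower, had 576, 427 and 577 in clf swn, 50.2, 54.6 and 47.8 in siFIE and 29.3, 25 and 37.7 in Col, with siFIE above Col on each array. The growth-regulating factors GRF7 and GRF8 were 19.0- and 23.9-fold Col in clf swn. GRF8 had the widest spread of any member among siFIE pools, 111, 246 and 276, against 134, 104 and 109.5 in Col. MYB11, which promotes flavonol synthesis, had 6432, 4344 and 4379 in clf swn, 256, 144 and 179.6 in siFIE and 369, 214 and 209.7 in Col. LBD40, a second LOB domain protein, had 17328, 21117 and 22169 in clf swn, 1931, 2157 and 2355 in siFIE and 1277, 1046 and 1349.6 in Col. It was 16.5-fold Col in clf swn and 1.76-fold in siFIE, with no overlap.

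Most hormone and growth regulators were near the cut. YUC4 and YUC1 encode flavin monooxygenases that make auxin. YUC4 had 5419, 6316 and 6423 in clf swn, 157, 254 and 244 in siFIE and 193, 138 and 148 in Col. YUC1 had 1445, 2344 and 2622 in clf swn, 202, 107 and 126 in siFIE and 112, 110.2 and 122 in Col. In YUC1 the clf swn pools differed by 1.81-fold, pool 1 being the lowest. GA1, which catalyses the first committed step of gibberellin synthesis, had 645, 904 and 750.2 in clf swn, 52.0, 50.5 and 87.0 in siFIE and 44.4, 53.2 and 44.0 in Col. Its difference, 4.01, was the smallest of all members by RMA. TEL1 and TEL2 encode RNA-binding proteins of the Mei2 type. TEL1 had 1074, 1316 and 1267 in clf swn, 66.9, 84.7 and 91.0 in siFIE and 73.3, 63.2 and 72.9 in Col. TEL2 had 4235, 5043 and 4135 in clf swn, 92.9, 215 and 202 in siFIE and 98.9, 120.5 and 102 in Col. The siFIE pools of TEL2 were widely spread, pool 1 being the lowest. CMT1, a chromomethylase-like gene, had 687, 592 and 678 in clf swn, 43.0, 41.4 and 39.3 in siFIE and 26.7, 29.8 and 43.8 in Col. GSO2, a receptor kinase needed for the cuticle of the embryo, had 6997, 6772 and 5627 in clf swn, 261, 276 and 258 in siFIE and 278, 362 and 291 in Col, with each siFIE pool a little below each Col pool. In the other 6 the siFIE and Col pools overlapped.

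Among genes of organelles and transport, RTNLB13, a reticulon of the endoplasmic reticulum, had 12777, 12088 and 14345 in clf swn, 32.7, 30.2 and 37.2 in siFIE and 26.3, 27.1 and 25.6 in Col. ATOEP16-2, a channel of the plastid outer envelope, had 29978, 31921 and 27822 in clf swn, 119, 108 and 129 in siFIE and 76.7, 77.6 and 62.0 in Col. SDH2-3, the iron-sulfur subunit of succinate dehydrogenase that is specific to seeds, had 33168, 40464 and 38980.4 in clf swn, 266, 363 and 237 in siFIE and 199, 149.6 and 132 in Col. In all 3, and in AtMT4b, the siFIE pools lay above the Col pools. The clf swn folds of the first 3 were 495, 416 and 237 by RMA, and 48.1, 83.5 and 49.9 without background correction, in another order.

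Transporters of several substrates were among the members. UMAMIT24, an amino acid carrier, had 1159, 947 and 1159 in clf swn, 24.6, 18.8 and 31.8 in siFIE and 19.6, 16.7 and 21.3 in Col. VIT1, which loads iron into vacuoles of the embryo, had 533, 526 and 574 in clf swn, 26.1, 23.2 and 27.7 in siFIE and 29.8, 28.3 and 21.0 in Col, a fold of 20.9. UPS4, a ureide permease, had 622, 645 and 775 in clf swn, 19.2, 22.6 and 39.9 in siFIE and 20.1, 22.1 and 30.3 in Col. In these 3 the siFIE pools overlapped the Col pools. ABCG15, a transporter of the ABC family, had 7490.5, 8761 and 6967 in clf swn, 231, 369.9 and 312 in siFIE and 172, 237 and 159 in Col, again with overlap. AtVEX1, annotated also as the sugar carrier SWEET5, was 19.4-fold Col, KT5, a potassium channel, 22.0-fold and NPF4.2 16.3-fold. GLN1;5, a glutamine synthetase, had 14534, 12756 and 12857 in clf swn, 237, 307 and 322 in siFIE and 291, 468 and 290.0 in Col. AOX2, the alternative oxidase of mitochondria, had 1609, 1678 and 1855 in clf swn, 111, 74.9 and 108 in siFIE and 73.0, 121 and 111 in Col. The metallothionein gene AtMT4b had 878, 590.3 and 656 in clf swn, 28.4, 34.4 and 32.0 in siFIE and 18.6, 25.6 and 27.0 in Col. LFG3 was 144-fold Col. ELIP1, a chloroplast protein induced by strong light, had 18877, 8945 and 11341 in clf swn, 966, 856 and 409 in siFIE and 722, 569.5 and 811 in Col. This was the widest spread of any member among clf swn pools, 2.11-fold between pool 1 and pool 2. The siFIE and Col pools overlapped.

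Among genes of specialised metabolism, PEN6, a triterpene synthase, had 25592, 28119.6 and 27671 in clf swn, 96.7, 77.2 and 124 in siFIE and 145, 130.5 and 96.9 in Col. The siFIE and Col pools overlapped. The carboxypeptidase-like gene scpl17 had 16451, 15520.4 and 16254 in clf swn, 210.5, 186 and 230.0 in siFIE and 127, 111 and 111 in Col. It was the 1 gene of the 8 in which siFIE lay wholly above Col, against 18.4% of all genes. The cytochromes P450 CYP71A26 and CYP71A15 were 65.9- and 20.8-fold Col. In CYP71A15 the siFIE pools, 54.7, 64.8 and 111, overlapped the Col pools, 102, 186 and 129.7, at a difference of -0.89. NSP2, a nitrile-specifier protein of glucosinolate breakdown, had 10092, 11576 and 9643 in clf swn, 284, 461 and 287 in siFIE and 326, 1046 and 471 in Col, and Col pool 2 stood well above the other Col pools. GLYI8, a glyoxalase, had 18832, 17914 and 20771 in clf swn, 761, 568 and 795 in siFIE and 422, 775 and 526 in Col. BGLU3 and ICME-LIKE2 were 17.2- and 38.3-fold Col.

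Of the 20 largest members by RMA, 12 are outside the role groups and are known by locus alone. AT1G47540 had 42824, 39413 and 44440.1 in clf swn, 59.0, 52.1 and 54.8 in siFIE and 26.2, 44.1 and 37.6 in Col. Its fold was 1199.7 (141 without background correction), and siFIE lay above Col. AT5G45690 had 33969.6, 31525 and 40418 in clf swn, 38.4, 58.6 and 64.0 in siFIE and 61.0, 35.4 and 29.1 in Col. AT2G15010 had 19544, 17020.5 and 19914 in clf swn, 31.8, 25.4 and 24.9 in siFIE and 31.8, 26.1 and 30.9 in Col. AT1G48990 had 24926, 24962 and 28429 in clf swn, 39.4, 30.6 and 64.3 in siFIE and 36.3, 38.6 and 49.2 in Col. In the last 3 of these siFIE and Col overlapped. AT2G05580, AT1G04560, AT2G34700, AT3G63040, AT5G38160, AT5G07330, AT2G21720 and AT5G62800 complete the 20 largest, with folds of 599, 529, 522, 496, 479, 330.0, 319 and 271. The 95 members outside the role groups had a median difference of 5.52 in clf swn and 0.10 in siFIE. Product names were not used to form the groups. These 95 may therefore hold genes of the grouped families or of the seed families left out.

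Some members lay side by side on the chromosome. The gene order of the reference held 6 such runs with 14 members. On chromosome 5 these were AT5G38160, AT5G38170 and AT5G38180, on chromosome 1 the latex protein genes MLP2, MLP3 and MLP1, on chromosome 2 AT2G23230 with AtMT4b, and on chromosome 4 GASA3 with GASA2, AT4G18680 with AT4G18690 and ENODL4 with KT5. AT5G38170 had 8322, 5598 and 4096 in clf swn, 29.1, 28.7 and 41.4 in siFIE and 34.2, 30.1 and 36.4 in Col. AT5G38180 had 909, 834 and 637 in clf swn, 35.4, 32.0 and 39.6 in siFIE and 26.6, 27.6 and 25.5 in Col. The clf swn pools of both were lowest in pool 3, as in AT5G38160 (23490.2, 21644 and 20054). MLP1 had 3609.9, 2957 and 3448 in clf swn, 26.9, 31.9 and 24.2 in siFIE and 18, 27.3 and 20.7 in Col. MLP3 had 4155, 2994 and 2255 in clf swn, 38.6, 27.8 and 30.0 in siFIE and 31.6, 36.2 and 26.6 in Col. MLP2 had 2058, 1277 and 1564 in clf swn, 43.2, 55.2 and 36.8 in siFIE and 69.9, 102 and 44.3 in Col. Their folds over Col were 153, 97.4 and 23.5, and siFIE and Col overlapped in all 3. Genes of such a run may share sequence, and the probes were not checked for it.

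Outside the runs, 310 genes flank the members without being members. Of these 47 (15.2%) were called higher in clf swn than in Col, against 8.78% of all genes, and 29 (9.35%) were called lower, against 12.8%. In siFIE 16 (5.16%) were called higher, against 4.51% of all genes, and 10 (3.23%) lower, against 3.19%. Of flanking genes chosen after their values were seen, the one with the largest difference was AT1G68250, next to AT1G68240. It was at 10.16 in clf swn (adjusted p = 1.6e-09 by limma) and 4.39 in siFIE. It is outside the members only because siFIE differed by more than 1. GA20OX3, a gibberellin oxidase beside ATS3, was higher in clf swn by 3.84 (adjusted p = 3.6e-08 by limma) and not called in siFIE. SPL8 (by AT1G02070) and HSFA6B, next to ELIP1, were called higher in both genotypes, whereas BBX14, next to LBD42, fell by 6.93 in clf swn (adjusted p = 8.4e-07 by limma). By chromosome the members made up between 0.485% and 0.614% of the genes of each, against 0.537% of the array. Their gene length in the reference had a median of 1583 bases, against 2134 over the 29976 array genes with a length.

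The other genes of these pathways were read from lists of 210 genes, 10 of them members. Of 19 seed maturation regulators outside the members, 12 were called higher in clf swn and 0 lower, and 4 were called higher in siFIE. Of these 19, 2 were loci the rule left out, and 4.51% of all genes were called higher in siFIE. The rule bears on such counts. A gene above 4 in clf swn is outside the members only by a siFIE difference beyond 1 or as a locus left out. Of 17 late embryogenesis and dehydrin genes outside the members, 12 were called higher in clf swn, and 8 higher and 1 lower in siFIE. Of the 17, 6 were loci the rule left out. ABI3, the B3 regulator of abscisic acid response in seeds, averaged 37401 ± 2152 in clf swn, 536 ± 136 in siFIE and 57.5 ± 21.2 in Col. ABI4, an AP2 protein of sugar and abscisic acid response, averaged 11738 ± 455 in clf swn, 239 ± 13.2 in siFIE and 23.8 ± 4.25 in Col. Both were higher in clf swn (log2 difference 9.42, SE 0.28, adjusted p = 1.1e-08 by limma and log2 difference 8.96, SE 0.14, adjusted p = 4.0e-10 by limma). In siFIE they lay 3.27 (SE 0.28) and 3.35 (SE 0.14) above Col. They are outside the members only because siFIE differed by more than 1, so no siFIE test is given for them. FUS3, 1 of the loci left out, averaged 6077 ± 629.9 in clf swn, 61.9 ± 6.09 in siFIE and 109.7 ± 33.6 in Col, at 5.84 in clf swn, and was not called in siFIE. In storage vacuole and protein processing 6 of 9 were called higher in clf swn and 4 in siFIE, 1 of the 9 being a locus the rule left out. Among them was the vacuole aquaporin BETA-TIP (9.89 and 1.31), outside the members for the same reason as ABI3 and ABI4. Its call in siFIE is lost with each of 3 ways of processing the probe signals.

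Beside the counts of this and the next lists, 8.78% of all genes were called higher and 12.8% lower in clf swn, and 4.51% higher and 3.19% lower in siFIE, so that 1 or 2 genes of a short list are close to these shares. Of 13 seed oil genes outside the members, 3 were called higher in clf swn and 0 in siFIE, with SUS3, a second sucrose synthase, at 13401 ± 725 in clf swn, 2398 ± 380.4 in siFIE and 2334 ± 145 in Col (log2 difference 2.52, SE 0.14, adjusted p = 5.2e-07 by limma). In abscisic acid synthesis, breakdown and signalling 7 of 22 were called higher and 4 lower in clf swn, and 1 higher and 2 lower in siFIE. NCED5, a dioxygenase of abscisic acid synthesis, was at 411 ± 49.9 in clf swn, 55.6 ± 5.97 in siFIE and 46.4 ± 10.4 in Col, and ABA1, an earlier enzyme, at 11262 ± 643 in clf swn, 13450.2 ± 477 in siFIE and 26556 ± 795 in Col. NCED5 was higher in clf swn (log2 difference 3.16, SE 0.17, adjusted p = 5.7e-07 by limma) and ABA1 lower (log2 difference -1.24, SE 0.10, adjusted p = 7.2e-06 by limma). In gibberellin synthesis and signalling 5 of 18 were called higher and 4 lower in clf swn, and 2 higher and 2 lower in siFIE. GA3OX1, the last step to active gibberellin, averaged 447 ± 103 in clf swn, 3283 ± 356 in siFIE and 7465 ± 264 in Col and fell by 4.09 in clf swn (adjusted p = 9.5e-08 by limma), and it was called lower in siFIE too. RGL2, a DELLA repressor of germination, averaged 10740.4 ± 1199 in clf swn, 1811 ± 281 in siFIE and 1191 ± 576 in Col. Of 8 raffinose genes 1 was called higher and 3 lower in clf swn, and 1 higher and 2 lower in siFIE, with stachyose synthase STS at 856 ± 110.1 in clf swn, 52.4 ± 11.5 in siFIE and 66.1 ± 8.82 in Col. Of 8 seed heat shock genes 5 were called higher in clf swn and 1 in siFIE, and of 11 genes of oil breakdown after germination 3 were called higher and 1 lower in clf swn, and 1 higher and 1 lower in siFIE. MLS, malate synthase, averaged 33127 ± 1857 in clf swn, 7269 ± 647 in siFIE and 3211 ± 252 in Col. Set against siFIE directly, 11 of the 19 seed maturation regulators were called higher in clf swn and 0 lower. Of the 17 late embryogenesis genes 12 were called higher and 2 lower, and of the 14 leaf photosynthesis genes 0 were called higher and 11 lower. Of all genes 6.82% were called higher and 11.0% lower. Loci the rule left out made up 2 of the 19 and 6 of the 17, and the rule bears on these counts too.

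**Figure D4:**
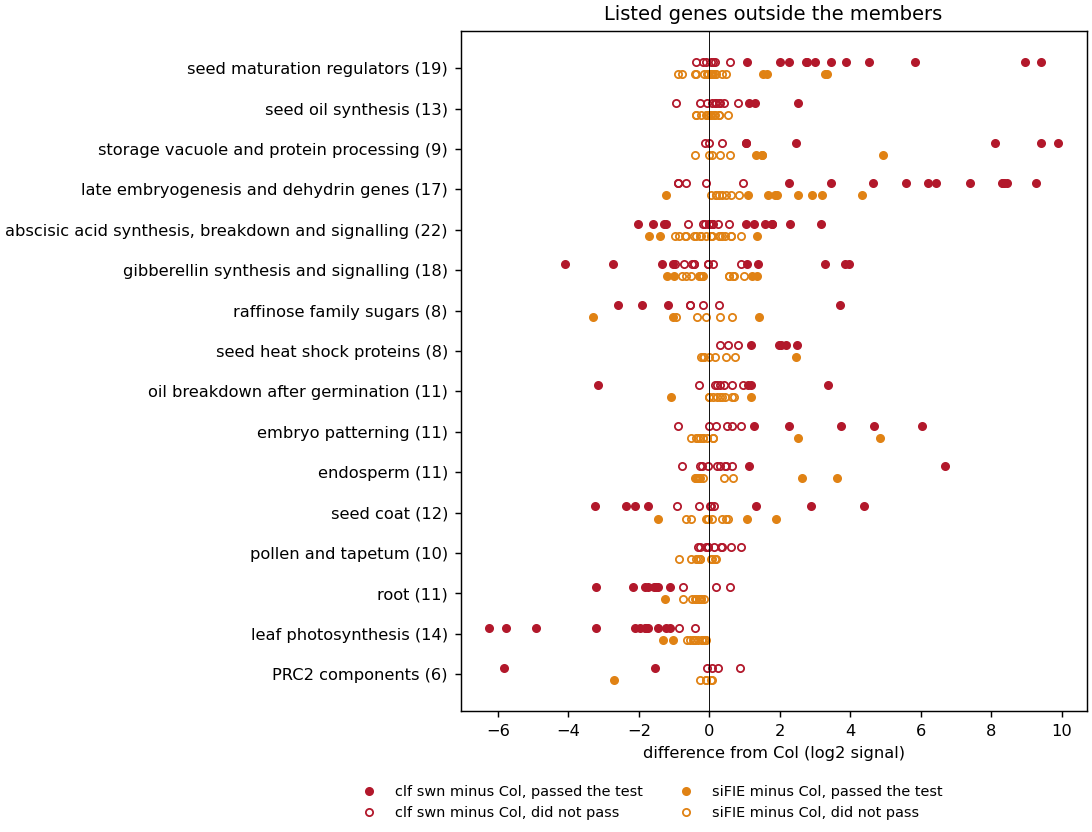
Log2 difference from Col (horizontal axis) of each listed gene that is no member, 1 row per list with its number of genes, in clf swn (red) and siFIE (orange). Filled points passed the test (adjusted p under 0.05 and more than 2-fold, limma) and open points did not; 12 of 19 seed maturation regulators were called higher and 12 of 14 photosynthesis genes lower in clf swn.

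Markers of other tissues differed with the genotype too, and their part in the values of the members was not tested. Over all genes 8.78% were called higher and 12.8% lower in clf swn, and 4.51% and 3.19% in siFIE. Of 14 leaf photosynthesis genes 12 were called lower and 0 higher in clf swn, and 2 lower in siFIE. Their summed signal per array was 188741 to 197831 in clf swn, 443134 to 471467 in siFIE and 535775 to 567751 in Col. RBCS2B, a small subunit of Rubisco, averaged 1179.9 ± 290.4 in clf swn, 22716 ± 3879 in siFIE and 35384 ± 3273 in Col. Of 11 root markers 8 were called lower in clf swn and 1 in siFIE, with sums of 24279.5 to 30075 in clf swn, 38328 to 50574 in siFIE and 54620.1 to 59490.1 in Col. Of 11 endosperm markers 2 were called higher in clf swn and 2 in siFIE. Their sums were 56061 to 64360.3 in clf swn, 6078 to 9224 in siFIE and 987 to 1327 in Col. Most of the clf swn and siFIE sums came from EPR1, an extensin-like gene of the endosperm, at 59822 ± 4161 in clf swn, 7274 ± 1609 in siFIE and 592 ± 124 in Col. The endosperm regulators AGL62, PHE1, IKU2 and FIS2 were called in neither genotype, with means in clf swn of 34.8, 32.3, 22.6 and 60.8. They were named from the 11 later than the other genes and do not stand for the list, which also held the genes called higher. Of 12 seed coat genes 3 were called higher and 4 lower in clf swn, 2 higher and 1 lower in siFIE, and sums were 54607 to 62696 in clf swn, 51019.5 to 63152 in siFIE and 51600.1 to 56742 in Col. No pollen or tapetum gene of 10 was called in either genotype, with sums of 1611 to 1707 in clf swn, 928 to 1122 in siFIE and 1002 to 1397 in Col, where without the fold threshold 2 were higher in clf swn and 1 lower in siFIE at an adjusted p under 0.05 by limma, and 0 passed an unadjusted p under 0.05 with the fold threshold. Embryo patterning genes were called higher in clf swn in 5 of 11 and in siFIE in 2, with WOX2 at 2607 ± 394 in clf swn, 599.6 ± 196 in siFIE and 101 ± 10.9 in Col (log2 difference 4.68, SE 0.23, adjusted p = 2.7e-07 by limma).

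At the clf swn cut and the upper siFIE cut the values ran on closely. Just inside the clf swn cut were GA1 at 4.01, NPF4.2 at 4.03, LBD40 at 4.04, AT5G03820 at 4.07 and BGLU3 at 4.11, and just outside were AT3G54510 at 3.99, NAC060 and AT2G35090 at 3.98 each, and AIL5 and AT3G12470 at 3.97 each. Just inside the upper siFIE cut were AT5G36100 at 0.99, AT1G62500 at 0.98, AT4G13960 at 0.97, AT5G62800 at 0.97 and AT4G36700 at 0.97. Just above it were AT3G03620 at 1.03, AT3G21380 and PER1 at 1.05 and 1.05, ENODL3 at 1.07 and the LEA gene AT2G21490 at 1.10. At the lower end AT1G24580 at -0.89, CYP71A15 at -0.89, AT4G31830 at -0.81, AT1G54860 at -0.77 and NSP2 at -0.70 were inside, and AT1G15825 at -1.21 was the only gene outside. The 195 genes above the siFIE cut had a median clf swn difference of 5.68 and a median siFIE difference of 2.63.

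Pools of a genotype were close to each other. In 150 of the 163 the highest clf swn pool was within 1.5-fold of the lowest, and in 2 (ELIP1 and AT5G38170) the pools were more than 2-fold apart. After these AT3G19920 had the widest spread, with 5321, 7893 and 10076 in clf swn, 145, 137 and 134 in siFIE and 86.6, 77.8 and 54.4 in Col. Among siFIE pools 13 members were more than 2-fold apart, and by the SD of log2 signal GRF8, TEL2 and ELIP1 were the widest. No clf swn pool was high or low throughout, since the median deviation of the members from their group mean was -0.03, 0.00 and 0.03 (log2) in the 3 pools, and pool 3 was the highest in 68 members and the lowest in 45.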

How the data were processed

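Expression was measured on 9 NimbleGen 1-colour arrays of 60-base probes for TAIR6 gene models, 3 per genotype. The authors deposited RMA intensity values (background-corrected, normalized between arrays, probes of a gene combined, linear scale), whose software is not given in the sources used here, and uncorrected probe intensity from NimbleScan 2.4.31. The files hold no detection flag.

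From these, log2 of the RMA intensity was fitted for all 9 arrays with limma 3.58.1 in R 4.3.3 and p-values were adjusted by Benjamini and Hochberg over all 30361 genes. Python 3.11.15, numpy 2.4.6 and pandas 2.3.3 were used for counts. On simulated data for clf swn against Col with 30361 genes, 40 of 50 genes changed by 1.5 (log2), 49 of 50 at 3 and 50 of 50 at each of 4.5 and 6 were recovered, with 2 false calls. The simulation drew independent normal noise for each gene and raised these genes alone, in clf swn only. Far more genes were called in the real data, in both directions, so it gives no error rate for them. The number of arrays limits the precision, and p-values measure only the spread between pools.

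The members and the gene lists were chosen with earlier results of these data known. Names follow a reference table of TAIR10.1. Members named are the 20 largest, those on a list, those nearest the cuts and those with the widest spread, and other members were named by role after their values were seen. Protein identity and product names were not used. Outside the members, up to 4 genes per list with the smallest p in clf swn, the loci left out and the genes of the genotypes were named, with 4 endosperm markers and flanking genes added later. Of 222 listed genes, 12 whose symbol did not match were not used. Alternatives changed the probe processing, the cuts, the filter, the test and the arrays.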

Additional observations from a re-analysis of the deposited data

How the results depend on the processing

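The members depend on how the probe signals were processed and on the cuts. Applied to probe signals without background correction, the rule found 98 genes, 59 of them among the 163, and with normexp correction it found 113 (87 shared) after quantile and 117 (90 shared) after median scaling. A cut of 3 in clf swn gave 261 members and a cut of 5 gave 97. Leaving out 1 array gave 156 to 166 members. No member named had a negative clf swn difference under any setting, the lowest being 1.52.

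Calls over all genes moved in the same way. Without background correction, 1564 genes were called higher and 2344 lower in clf swn against Col, 675 and 439 in siFIE against Col, and 1165 and 1849 in clf swn against siFIE. With no fold threshold the counts were 7336 and 6887, 3102 and 3047, and 6332 and 6281. In siFIE against Col, normexp with median scaling gave 863 higher and 640 lower, and with quantile scaling 609 lower. The cause was not tested. Among the lists in clf swn, the gibberellin genes called lower were 2 with each processing of probe signals, the gibberellin and the heat shock genes called higher were 3 each without background correction, the endosperm genes called higher were 1 with each processing of probe signals, and the embryo patterning genes called higher were 3 among genes over the 25th percentile of signal. Leaving out 1 array gave 2664 to 2750 higher and 3774 to 3962 lower in clf swn against Col, 1263 to 1503 and 888 to 1061 in siFIE against Col, and 2063 to 2144 and 3204 to 3424 in clf swn against siFIE. The replicate block gave 2664 and 3878, 1361 and 956, and 2071 and 3319. Same-numbered pools correlated at -0.164 to 0.169 and matched best in 7 of 18 cases, which gave no sign that the numbers pair pools. With 3 pools per genotype such a check could miss a pairing. The array slide as a block was not run, since the files give each array its own image number and name no slide that arrays share.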
